A study of Mus musculus with 18 samples.

Results

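The genes described here are 6 signals and receptors through which bone-forming stromal cells control osteoclasts and respond to the hormones of calcium balance, of 24421 gene symbols in the count tables. They were taken by symbol, and all 6 were found in both tables and passed the filter on low counts in both. Tnfsf11 encodes RANKL and Tnfrsf11b encodes osteoprotegerin, Csf1 and Il34 encode the ligands of the macrophage receptor Csf1r, Pth1r encodes the receptor of parathyroid hormone (PTH) and of PTH-related protein, and Vdr encodes the vitamin D receptor.

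Stromal cells of mouse bone marrow (BM) gave 18 RNA-seq libraries, which form 6 groups of 3. For 12 libraries, BM cells of C57BL/6 mice aged 4 to 6 months, which were Pot1a wild/wild or flox/flox and all carried a flox-stop-flox tdTomato reporter, were cultured, sorted as CD51+/PDGFRα+, exposed for 12 h to vesicles carrying Cre (10 µL per well) and sorted again as tdTomato+ 48 h later. The wild/wild cells also received Cre and are called wt/wt, and the flox/flox cells after Cre are labelled Δ/Δ; both were analysed at week 1 and week 4. The other 6 libraries were of tdTomato+ cells sorted without culture from the BM of C57BL/6 mice aged 2 weeks that carried NG2-cre and loxp-tdTomato. NG2-cre is active in pericytes and other stromal cells of the whole body, so that deletion was not limited to the BM. The sample titles give Pot1awt/Δ for 3 of these libraries and Pot1aΔ/Δ for 3, whereas the genotype field gives fl/fl for all 6; they were grouped by the titles. The titles' wt/Δ group is called wt/fl and their Δ/Δ group fl/fl, the names in the series' design text, to keep them apart from the cultured Δ/Δ. POT1a is a protein that protects telomeres, and the comparisons ask how its loss changed the stromal cells. Each group is described as 3 mice, but the labels do not tie libraries to mice, so the spread that the p-values measure may be partly technical.

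The cultured libraries held 12807832 to 90717232 counts and the sorted ones 28918757 to 49992698. Counts of Pot1a cover all its exons, and the exons that Cre removes are not given in the sources used here, so these counts do not check the deletion. Pot1a was at 34.9 ± 1.51 CPM (counts scaled to library size; SD, n = 3) in wt/wt and 34.5 ± 3.41 in Δ/Δ at week 1, at 34.9 ± 2.54 and 45.6 ± 2.62 at week 4, and at 30.4 ± 3.70 and 26.9 ± 6.77 in the sorted groups. At week 4 it was higher in the libraries labelled Δ/Δ (log2 fold change 0.39, SE 0.11, adjusted p = 0.0298, edgeR). Genotypes are therefore named as the labels give them. Among the sorted libraries, counts of 4 Y-linked genes were 6782 and 5715 in replicates 1 and 3 of wt/fl and 0 in the other 4, so sex and genotype are partly confounded there. Megakaryocyte markers summed to 1689 CPM in wt/fl replicate 2 and 847 CPM in fl/fl replicate 3, against 17.6 to 27.3 CPM in the other 4. Of the markers of the labelled cells, 8 stromal genes summed to 6352 to 14685 CPM in culture and 16188 to 37228 CPM in sorted cells. Col1a2 made up most of this sum, with group means of 6092 to 10741 CPM in culture and a mean of 24250 CPM in wt/fl. The sum of 20 osteoclast and monocyte markers was 3402 to 8221 CPM in sorted cells and 223 to 310 CPM in culture, and 10 endothelial markers summed to 1737 to 2651 CPM and 2.56 to 11.1 CPM, respectively. In culture, Ctsk, Nfatc1 and Itgb3 made up most of the osteoclast and monocyte sum, and 11 to 13 of the 20 genes were under 1 CPM in each group.

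Osteoclasts, the cells that resorb bone, form from monocytic precursors under instruction from stromal cells, osteoblasts and osteocytes. RANKL binds the receptor RANK (Tnfrsf11a) on the precursor and drives its differentiation, whereas osteoprotegerin is a soluble decoy that binds RANKL and withholds it, so that the balance of both sets the rate of resorption. Csf1 and Il34 keep the precursors alive through their shared receptor. PTH, through Pth1r and cyclic AMP, and the active form of vitamin D, through Vdr, both act on the stromal cell and are known inducers of Tnfsf11.

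On the GRCm38 assembly (GENCODE M21), all 6 genes lie on the minus strand. Tnfsf11 spans chr14:78277445-78308043 with 2236 annotated exon bases, Tnfrsf11b chr15:54250619-54278484 with 2818, Csf1 chr3:107741048-107760469 with 5281, Il34 chr8:110741829-110805924 with 1959, Pth1r chr9:110722085-110747145 with 2925 and Vdr chr15:97854425-97910630 with 5650. Promoters from RefSeq (GRCm38.p6; 250 bases before to 50 after a start site) were at hand for Tnfsf11, Csf1, Pth1r and Vdr. Those of Tnfsf11 and Pth1r are shown because these genes changed most, and in opposite directions, at week 4. They are printed 5′ to 3′ on the strand of the gene, and capitals mark matches to any of 5 motifs searched on both strands. The TATA box was searched as TATAAA, which 13.6% of all 32851 promoters of this length held. The GC box was searched as GGGCGG and was found in 35.7% of those promoters. The core of the cyclic AMP response element, TGACG, was found in 20.8% of the same windows, the nuclear receptor core AGGTCA in 16.3% of them and the RUNX core TGTGGT in 16.8%. No marked matches overlap.
Tnfsf11, chr14:78307994-78308293: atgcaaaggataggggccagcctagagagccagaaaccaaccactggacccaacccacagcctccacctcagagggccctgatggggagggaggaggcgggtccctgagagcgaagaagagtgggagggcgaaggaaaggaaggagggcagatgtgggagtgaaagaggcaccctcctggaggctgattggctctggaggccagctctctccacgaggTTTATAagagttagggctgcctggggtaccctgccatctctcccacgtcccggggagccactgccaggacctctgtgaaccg
Pth1r, upstream start, chr9:110747096-110747395: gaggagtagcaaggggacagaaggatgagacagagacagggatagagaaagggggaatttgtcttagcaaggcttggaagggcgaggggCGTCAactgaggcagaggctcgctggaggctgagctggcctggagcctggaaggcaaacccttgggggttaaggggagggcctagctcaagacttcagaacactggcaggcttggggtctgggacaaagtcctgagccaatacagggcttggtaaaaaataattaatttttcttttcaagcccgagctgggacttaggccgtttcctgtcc
Pth1r, middle start, chr9:110743637-110743936: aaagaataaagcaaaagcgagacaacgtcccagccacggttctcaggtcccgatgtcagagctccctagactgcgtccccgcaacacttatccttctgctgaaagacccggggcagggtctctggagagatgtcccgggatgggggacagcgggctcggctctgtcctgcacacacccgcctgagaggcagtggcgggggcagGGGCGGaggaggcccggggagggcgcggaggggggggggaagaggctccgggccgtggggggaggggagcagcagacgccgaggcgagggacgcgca
Pth1r, downstream start, chr9:110742561-110742860: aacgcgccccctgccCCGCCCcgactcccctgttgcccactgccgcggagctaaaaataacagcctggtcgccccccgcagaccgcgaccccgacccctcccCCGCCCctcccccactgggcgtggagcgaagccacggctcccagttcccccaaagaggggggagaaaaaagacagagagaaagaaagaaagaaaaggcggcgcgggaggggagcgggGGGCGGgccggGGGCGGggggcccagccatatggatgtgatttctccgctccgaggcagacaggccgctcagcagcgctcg
The Tnfsf11 window held 1 TATA box match, on the opposite strand and 32 bases before the start site (-32), and none of the other motifs. The 3 windows of Pth1r differed: the upstream one held 1 TGACG match on the opposite strand, the middle one 1 GC box and the downstream one 4 GC boxes. Counts cover all exons of a gene, so the data do not tell the Pth1r starts apart. The Csf1 window held 2 GC boxes and the Vdr window 3. The nuclear receptor and RUNX cores were absent from all of these windows, which says only that these letters are not in them.

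Set side by side per kb of exon, the levels of the 6 genes formed an order that was shared by most cultured groups and was different in the sorted cells. The cultured and sorted tables were scaled separately, so levels across them are descriptions. In wt/wt cells at week 1, Csf1 was highest at 432 ± 98.2 CPM per kb (SD, n = 3), followed by Tnfrsf11b at 277 ± 57.0, whose libraries overlapped those of Csf1. Pth1r came next at 20.5 ± 1.96 CPM per kb, Vdr was at 9.76 ± 0.457, Il34 at 3.11 ± 0.0956 and Tnfsf11 at 0.811 ± 0.222, and none of these neighbours overlapped. The Δ/Δ libraries at week 1 and wt/wt at week 4 kept this order. In Δ/Δ at week 4, Tnfrsf11b stood above Csf1 (415 ± 75.4 against 386 ± 46.3 CPM per kb), but their libraries overlapped. In the wt/fl sorted cells, Tnfsf11 was at 122 ± 76.8 CPM per kb and Pth1r at 122 ± 11.5, and Tnfrsf11b was lowest at 9.32 ± 2.50. In those labelled fl/fl, Tnfsf11 was highest at 173 ± 52.4 CPM per kb, apart from Pth1r at 89.2 ± 7.11, and Tnfrsf11b was again lowest at 9.69 ± 0.990, with libraries that overlapped those of Il34 in both sorted groups.

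**Figure D1:**
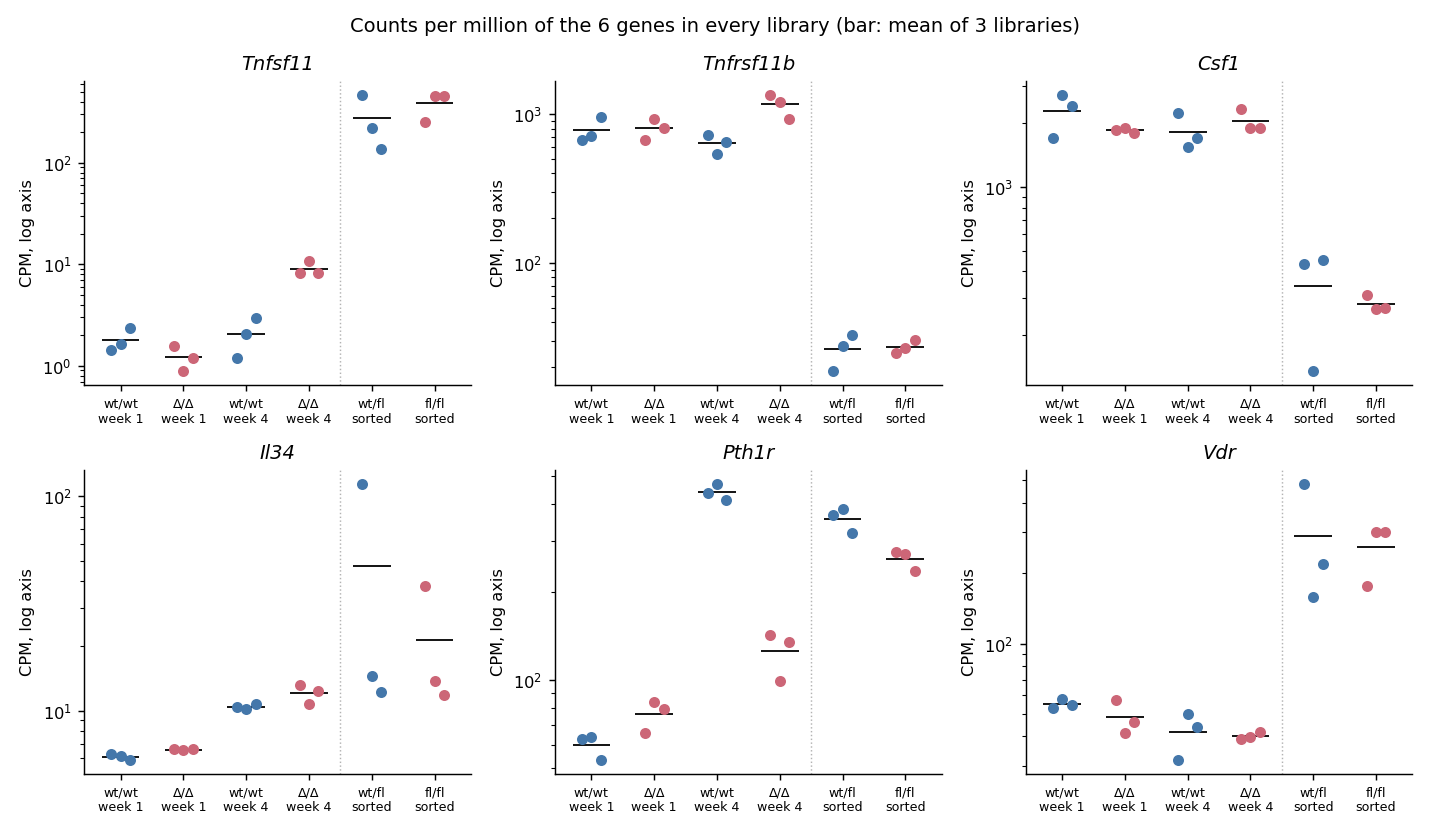
CPM (TMM-scaled, log axis) of the 6 genes in each of the 18 libraries, with blue points for wt/wt or wt/fl, red points for Δ/Δ or fl/fl by label, and a bar at the mean of 3 libraries. The dotted line separates cultured from sorted cells, which were scaled separately: Tnfsf11 lies at 0.884 to 10.9 CPM in culture and 135 to 465 CPM in sorted cells, and Tnfrsf11b at 538 to 1352 and 18.7 to 32.5 CPM.

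At week 1, none of the 6 genes was called between Δ/Δ and wt/wt (0 of 6 called higher or lower by edgeR's quasi-likelihood test; of all 13169 genes tested, 0.752% were called higher and 0.266% lower). At an unadjusted p under 0.05, 1 of the 6 was past the threshold, as were 1570 of the 13169 genes (11.9%), and DESeq2 also called 0 of the 6. This gene was Pth1r, with 65.7, 84.4 and 79.8 CPM in replicates 1 to 3 of Δ/Δ and 62.8, 63.6 and 53.3 CPM in wt/wt. Its groups did not overlap, yet the log2 fold change of 0.36 (SE 0.15) had an adjusted p of 0.347 (edgeR). Il34 was also without overlap, at 6.59, 6.52 and 6.63 CPM in Δ/Δ against 6.25, 6.16 and 5.89 CPM in wt/wt, with a log2 fold change of 0.11 (95% interval -0.16 to 0.37). Tnfsf11 was barely detected in both, on 16 to 62 counts per library. Its 95% interval, -1.29 to 0.14 on the log2 scale, was the widest of the 6. The libraries of Tnfrsf11b, Csf1 and Vdr overlapped between genotypes, and their adjusted p-values were 0.978, 0.586 and 0.761 (edgeR). How many of all genes were without overlap was not counted.

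At week 4, the transcripts of RANKL and its decoy were both higher, and that of the PTH receptor was lower, in Δ/Δ than in wt/wt. Of the 6 genes, 2 were called higher (Tnfsf11 and Tnfrsf11b) and 1 lower (Pth1r), where 9.20% of all genes were called higher and 6.46% lower. The median log2 fold change was 0.19 over the 6 genes and 0.00 over all genes. These 3 calls were made in each of 19 alternative analyses.

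Tnfsf11 was measured at 8.13, 10.9 and 8.19 CPM in Δ/Δ replicates 1 to 3, on 231, 220 and 756 counts. In wt/wt it was at 1.20, 2.06 and 2.94 CPM, on 16, 46 and 83 counts. All Δ/Δ libraries thus lay above all wt/wt libraries, and Tnfsf11 was 4.20-fold higher (log2 fold change 2.07, SE 0.29, adjusted p = 3.51e-04, edgeR). In bulk RNA, a larger share of cells with the transcript and more transcript per cell cannot be told apart.

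Tnfrsf11b, the decoy, was an abundant transcript in all cultured groups. It was at 1352, 1218 and 935 CPM in Δ/Δ and at 728, 538 and 652 CPM in wt/wt at week 4. The groups did not overlap, with Δ/Δ replicate 3 the lowest of its group, and the rise was 1.83-fold (log2 fold change 0.87, SE 0.19, adjusted p = 0.00668, edgeR).

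Pth1r was at 143, 99.0 and 135 CPM in Δ/Δ and at 436, 471 and 415 CPM in wt/wt. Every Δ/Δ library was below the lowest wt/wt library by a wide margin, and Pth1r was 3.51-fold lower (log2 fold change -1.81, SE 0.15, adjusted p = 5.09e-06, edgeR).

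The other 3 genes did not pass the test at week 4. Csf1, the abundant ligand of Csf1r, was at 2321, 1894 and 1901 CPM in Δ/Δ and at 2231, 1545 and 1704 CPM in wt/wt (log2 fold change 0.16, 95% interval -0.23 to 0.55, adjusted p = 0.649, edgeR). Il34, its much scarcer counterpart, was at 13.2, 10.8 and 12.3 CPM against 10.4, 10.2 and 10.8 CPM (0.21, -0.04 to 0.47, adjusted p = 0.285, edgeR). Vdr was at 38.9, 39.8 and 41.8 CPM against 31.7, 49.7 and 44.1 CPM (-0.06, -0.41 to 0.29, adjusted p = 0.863, edgeR). For all 3, the libraries of both genotypes overlapped.

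**Figure D2:**
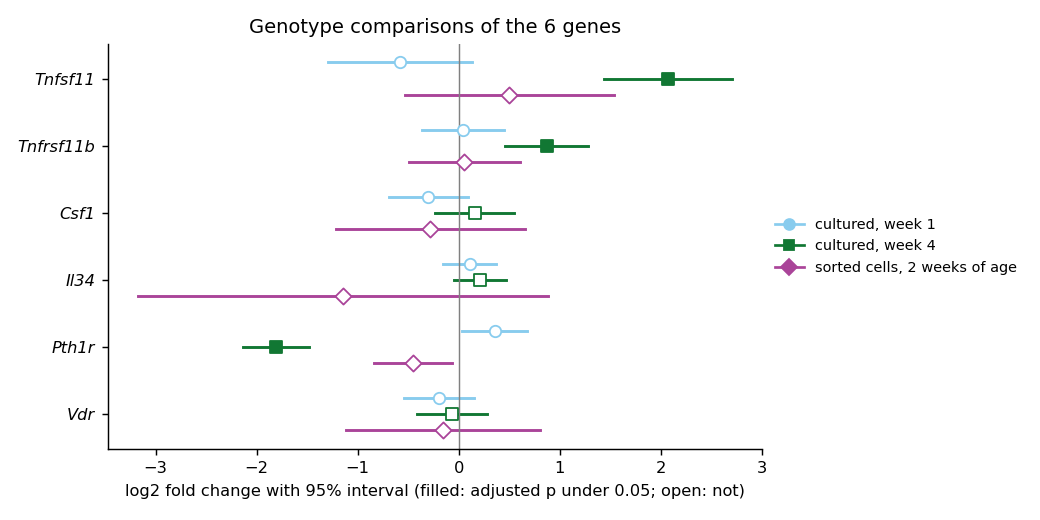
Log2 fold change of Δ/Δ over wt/wt at week 1 (circles) and week 4 (squares), and of fl/fl over wt/fl in sorted cells (diamonds), with 95% intervals from edgeR; filled symbols passed an adjusted p of 0.05. Filled symbols are found at week 4 alone, for Tnfsf11 (2.07), Tnfrsf11b (0.87) and Pth1r (-1.81), and the intervals are widest in sorted cells, where that of Il34 runs from -3.18 to 0.89.

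Over culture time, Pth1r rose in both genotypes, but far more in wt/wt. In wt/wt, 2 of the 6 genes were called higher at week 4 than at week 1 (Il34 and Pth1r) and 0 lower, with 17.9% of all genes called higher and 16.1% lower. Pth1r rose 7.36-fold, from 59.9 ± 5.73 to 441 ± 28.4 CPM (adjusted p = 1.18e-07, edgeR), and Il34 rose 1.71-fold, from 6.10 ± 0.187 to 10.4 ± 0.303 CPM (adjusted p = 3.43e-04, edgeR). All week 4 libraries were above all week 1 libraries for both genes. These p-values take the libraries as unpaired, and a fit paired by replicate number changed no call in wt/wt. Vdr was lower in every week 4 library than in any week 1 library of wt/wt (41.9 ± 9.20 against 55.1 ± 2.58 CPM), but its log2 fold change of -0.39 did not pass the test (adjusted p = 0.0758, edgeR). Without wt/wt replicate 2 of week 4, Vdr passed (-0.53, adjusted p = 0.0345, edgeR), as did Csf1 without replicate 1 of week 1 (-0.49, adjusted p = 0.0416) or of week 4 (-0.49, adjusted p = 0.0463).

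In Δ/Δ, 4 of the 6 genes were called higher at week 4 and 0 lower, with 18.8% of all genes called higher and 16.3% lower. Tnfsf11 rose 7.46-fold, from 1.21 ± 0.345 to 9.06 ± 1.56 CPM (adjusted p = 2.08e-05, edgeR), whereas in wt/wt it was at 1.81 ± 0.495 and 2.07 ± 0.873 CPM. Il34 rose 1.84-fold (adjusted p = 1.31e-04, edgeR) and Pth1r 1.64-fold, from 76.6 ± 9.70 to 126 ± 23.5 CPM (adjusted p = 0.00238, edgeR). Tnfrsf11b rose 1.46-fold (log2 fold change 0.54, adjusted p = 0.0402, edgeR), but this call was lost without Δ/Δ replicate 1 or 3 of week 1 (adjusted p = 0.139 and 0.0940) and without replicate 1 or 2 of week 4 (0.130 and 0.0848).

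The difference between the genotype effects of both weeks was tested as an interaction. Of the 6 genes, 1 was called higher (Tnfsf11) and 1 lower (Pth1r), with 4.08% of all genes called higher and 3.08% lower. For Tnfsf11 the effect at week 4 exceeded that at week 1 by 2.65 on the log2 scale (SE 0.44, adjusted p = 0.00251, edgeR). For Pth1r the difference was -2.17 (SE 0.21, adjusted p = 5.79e-05, edgeR). That of Tnfrsf11b, 0.83 (SE 0.26), did not pass the test (adjusted p = 0.0875, edgeR), although it did with DESeq2 (adjusted p = 0.0399) and without wt/wt replicate 1 of week 4 (adjusted p = 0.0481, edgeR). Il34, which rose with time in both genotypes, had an interaction of 0.10 (95% interval -0.27 to 0.47).

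**Figure D3:**
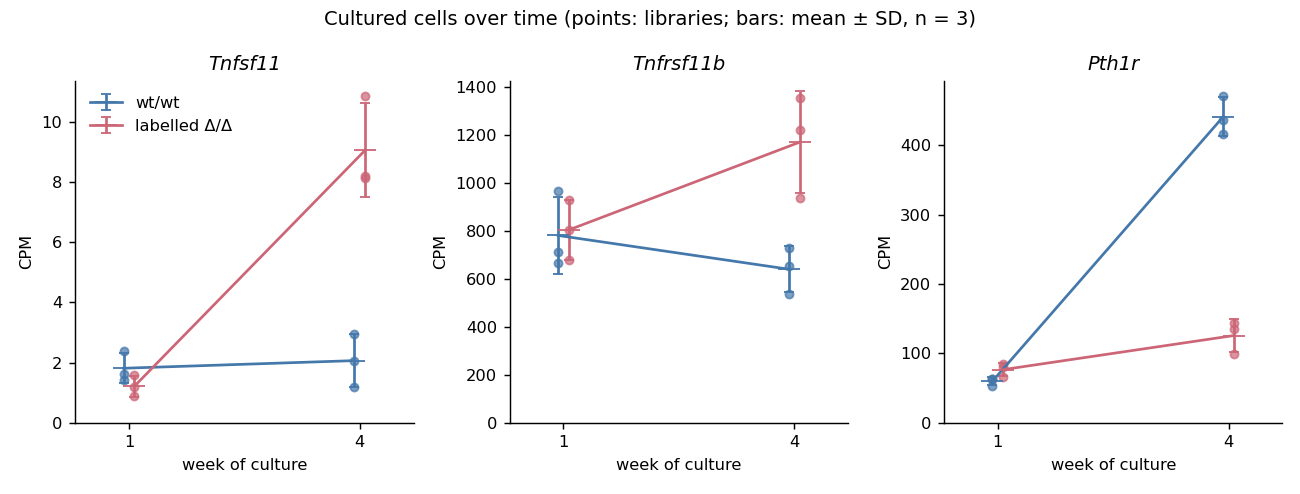
CPM of Tnfsf11, Tnfrsf11b and Pth1r in cultured cells at week 1 and week 4, on linear axes from 0, for wt/wt (blue) and Δ/Δ by label (red); points are libraries and bars the mean ± SD of 3 libraries. Pth1r rose to 441 CPM in wt/wt and to 126 CPM in Δ/Δ, and Tnfsf11 rose to 9.06 CPM in Δ/Δ and was at 2.07 CPM in wt/wt.

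The ratio of Tnfsf11 to Tnfrsf11b, which needs no scaling between libraries, was far below 1 in every cultured library. Per 1000 Tnfrsf11b counts, wt/wt cells at week 1 held 2.14, 2.31 and 2.46 Tnfsf11 counts, and Δ/Δ cells 2.32, 0.951 and 1.48. At week 4 the values were 1.64, 3.83 and 4.51 in wt/wt and 6.02, 8.92 and 8.76 in Δ/Δ. Thus all 3 Δ/Δ libraries of week 4 lay above the other 9 cultured libraries. The least certain values rest on 16 Tnfsf11 counts: in wt/wt replicate 1 of week 4, Tnfsf11 made up 0.164% of the counts of both genes (95% Wilson interval 0.101 to 0.266%, counting error only).

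At week 4 the ratio was 2.55-fold higher in Δ/Δ than in wt/wt (log2 difference 1.35, SE 0.49). With 3 against 3 libraries the exact two-sided permutation test cannot give a p under 0.1, and it gave p = 0.1. The rise of the ratio in Δ/Δ from week 1 to week 4 was 5.24-fold (2.39, SE 0.42, exact permutation p = 0.1), again without overlap. At week 1 the ratio in Δ/Δ differed from that in wt/wt by -0.63 on the log2 scale (SE 0.38, exact permutation p = 0.3), and in wt/wt week 4 differed from week 1 by 0.41 (SE 0.46, exact permutation p = 0.4), with overlapping libraries in both. The SE and p over time in wt/wt take the libraries as unpaired, although their replicate numbers were taken to pair them. Over the 5 comparisons of the ratio, the Benjamini-Hochberg adjusted p of these exact tests was 0.25 for both differences without overlap, 0.5 for the comparison at week 1 and for that over time in wt/wt, and 0.6 for the sorted cells.

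In sorted cells the ratio was above 1 in every library. It was 24.9, 7.93 and 4.15 in wt/fl and 10.1, 17.0 and 14.9 in the libraries labelled fl/fl. The controls spanned the whole range of the other group, and the log2 difference of 0.55 (SE 0.79) had an exact permutation p of 0.6; it was -0.040 without wt/fl replicate 3 and 1.25 without wt/fl replicate 1. The geometric means were 9.36 and 13.7 in sorted cells, against 2.30, 1.48, 3.05 and 7.78 per 1000 in the cultured groups (wt/wt and Δ/Δ at week 1, then at week 4); this is set across both tables with no test, but a ratio within a library does not depend on their scaling. The sorted cells also held Csf1r at 137 ± 37.5 and 151 ± 55.1 CPM and Ptprc, the pan-leukocyte marker CD45, at 43.3 ± 11.6 and 55.3 ± 8.09 CPM, in wt/fl and fl/fl. In flow cytometry the tdTomato+ cells were gated within the CD45-TER119-CD31- fraction, which would leave out leukocytes, but whether these libraries were sorted through that gate is not given in the sources used here. The part of Csf1r+ and Ptprc+ cells in this ratio was not tested.

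**Figure D4:**
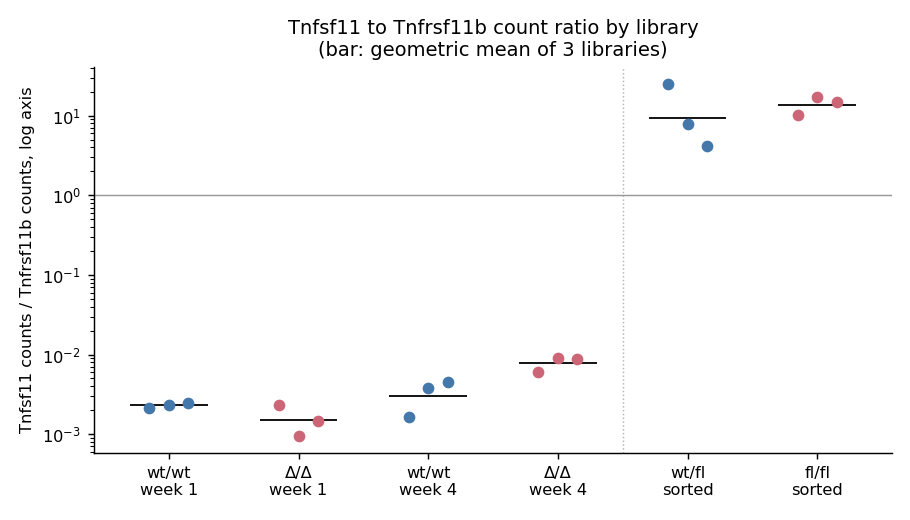
Ratio of Tnfsf11 counts to Tnfrsf11b counts in each library, on a log axis, with a bar at the geometric mean of 3 libraries and a grey line at a ratio of 1; colours are as for the plot of CPM by library. The highest of the 12 cultured libraries is at 0.00892 and the lowest of the 6 sorted libraries at 4.15, and among cultured groups the Δ/Δ libraries of week 4 are highest.

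In sorted cells, none of the 6 genes was called between genotypes (0 of 6 by edgeR, and 0 by DESeq2). Of all 14605 genes tested, edgeR called 0% higher and 0% lower, 1792 (12.3%) had an unadjusted p under 0.05, and DESeq2 called 409. DESeq2 gave no adjusted p for Il34. Among the controls the highest library exceeded the lowest 3.45-fold in Tnfsf11, 3.35-fold in Csf1, 3.05-fold in Vdr and 9.32-fold in Il34, against 1.20-fold in Pth1r.

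Of the 6, Pth1r was the 1 gene with an unadjusted p under 0.05, as 12.3% of all genes had, and with no overlap between the groups. How many of all genes were without overlap was not counted, so this separation is a description. Pth1r was at 368, 384 and 320 CPM in wt/fl replicates 1 to 3 and at 275, 271 and 237 CPM in fl/fl. All fl/fl libraries were lower, with a log2 fold change of -0.45 (SE 0.17, 95% interval -0.84 to -0.07, adjusted p = 0.337, edgeR). The endothelial marker sum also differed without overlap, at 1737 to 2155 CPM in wt/fl and 2476 to 2651 CPM in fl/fl, and the osteoblast and osteocyte sum was 7235 to 15213 CPM and 5931 to 8384 CPM. Their part in the Pth1r values was not tested.

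Tnfsf11 was at 465, 219 and 135 CPM in wt/fl and at 251, 457 and 451 CPM in fl/fl. The highest value of all was a control, and the log2 fold change was 0.50 (95% interval -0.53 to 1.53, adjusted p = 0.709, edgeR). It was 0.17 without wt/fl replicate 3 and 1.12 without wt/fl replicate 1 (adjusted p = 0.835 and 0.288, edgeR). Tnfrsf11b was low in all 6 libraries, at 18.7, 27.6 and 32.5 CPM and at 24.8, 26.8 and 30.3 CPM (0.06, -0.50 to 0.61, adjusted p = 0.954, edgeR).

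The remaining genes varied mainly among the controls. Csf1 was at 434, 136 and 454 CPM in wt/fl and at 310, 266 and 268 CPM in fl/fl, the low control being replicate 2, which was rich in megakaryocyte markers. Vdr was at 484, 159 and 220 CPM and at 176, 300 and 299 CPM. Il34 was at 114, 14.4 and 12.3 CPM and at 38.2, 13.7 and 11.8 CPM, so that replicate 1 was highest in both groups. Control replicate 1 was also highest of the controls in Tnfsf11 and Vdr, and lowest in the sum of osteoblast and osteocyte markers (7235 CPM, against 12594 and 15213). Without it, the log2 fold change of Il34 turned from -1.15 to 0.66 and that of Vdr from -0.15 to 0.44, neither past the test (adjusted p = 0.643 and 0.558, edgeR). With sex as a term, Csf1 turned from -0.28 to 1.05 (adjusted p = 0.459, edgeR). Neither this fit nor one without the libraries rich in megakaryocyte markers called any of the 6 genes.

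Markers of several cell classes also differed between genotypes at week 4. Of all genes, 9.20% were called higher and 6.46% lower in Δ/Δ at week 4, and 0.752% and 0.266% at week 1. Over time in wt/wt, 17.9% of all genes were called higher and 16.1% lower. Of 8 tested osteoblast and osteocyte markers, 8 were called lower in Δ/Δ at week 4 and 0 at week 1, and 7 rose over time in wt/wt. They included Bglap, which encodes osteocalcin (log2 fold change -4.17 at week 4, adjusted p = 5.59e-06, edgeR), and Ibsp, which encodes bone sialoprotein (-3.34, adjusted p = 6.34e-05). The list of 10 summed to 7451 to 9572 CPM in wt/wt at week 4, to 1905 to 2681 CPM in Δ/Δ, and to 860 to 1373 CPM in both groups at week 1; 1 of the 10 was at 0 in each week 4 group. The mean of Pth1r followed the order of these sums across the 4 cultured groups, whereas Tnfsf11 did not. Of 7 tested stromal markers, 3 were higher and 1 lower in Δ/Δ at week 4 and 0 were called at week 1. The higher ones were Eng, the co-receptor endoglin (4.20), Pdgfra (1.30) and Lepr, the leptin receptor of marrow stroma (0.94), and the lower one was the collagen gene Col1a2 (-0.82). Lepr had a log2 fold change of 0.78 at week 1 (adjusted p = 0.0571, edgeR). The interaction was called for Eng, Pdgfra and Col1a2, and not for Lepr (0.16, adjusted p = 0.829, edgeR). The 8 stromal genes summed to 8137 to 14685 CPM in wt/wt at week 4 and to 6352 to 8459 CPM in Δ/Δ. Col1a2 made up most of both sums, with means of 10741 CPM in wt/wt and 6092 CPM in Δ/Δ. The means of Eng, Pdgfra and Lepr were 5.03, 93.5 and 47.2 CPM in wt/wt and 94.3, 231 and 90.9 CPM in Δ/Δ. The sums therefore follow Col1a2 rather than the stromal genes as a set. Of 6 tested chondrocyte markers, 2 were higher at week 4 (Col10a1, 1.29, and Comp, 0.91) and 1 lower (Ihh, -3.87). The 1 marker higher at week 1 was also Comp (1.25, adjusted p = 0.0407, edgeR). The interaction was called for Col10a1 and Ihh, and not for Comp (-0.34, adjusted p = 0.732, edgeR). The 8 chondrocyte genes summed to 1259 to 3521 CPM in wt/wt at week 4 and to 1772 to 2400 CPM in Δ/Δ. Col2a1, which was not called (adjusted p = 0.530, edgeR), made up most of both sums, with means of 2551 and 2021 CPM. The part of these cells in the results was not tested.

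Of 20 osteoclast and monocyte markers, 11 to 13 were under 1 CPM in each cultured group and the others were detected, Ctsk most of all at week 4. Ptprc had 0 to 17 counts in all per cultured group, Dcstamp, which is needed for osteoclast fusion, 0 or 1, and Calcr, the calcitonin receptor, 0 or 1, all 3 chosen after their values were seen. Of the 20, 11 were tested. At week 4, 4 were higher in Δ/Δ and 1 lower, and at week 1, 2 were higher and 0 lower. The shares of all genes were 9.20% higher and 6.46% lower at week 4, and 0.752% and 0.266% at week 1. The higher ones at week 4 were Fcer1g (3.15, adjusted p = 1.02e-04, edgeR), Atp6v0d2 (1.18), Acp5, which encodes the phosphatase TRAP (1.15, from 0.756 ± 0.102 to 1.62 ± 0.314 CPM), and Ctsk, which encodes cathepsin K (0.64, from 103 ± 8.12 to 161 ± 9.99 CPM). Fcer1g was scarce, at 0.323 ± 0.179 CPM in wt/wt, on 18 counts in all, and 2.57 ± 0.611 CPM in Δ/Δ. The lower one at week 4 was Nfatc1 (-0.63, adjusted p = 0.00491, edgeR), with a mean of 91.14 CPM in wt/wt and 58.95 CPM in Δ/Δ. The genes higher at week 1 were Fcer1g (2.03, adjusted p = 0.00306, edgeR) and Lyz2 (1.68, adjusted p = 0.00247, edgeR). Fcer1g was then at 2.41 ± 0.755 CPM in wt/wt and 9.96 ± 1.43 CPM in Δ/Δ. Its interaction of 1.12 was not called (adjusted p = 0.229, edgeR). The interaction was called for Atp6v0d2, Acp5 and Lyz2, and not for Ctsk or Nfatc1. The list summed to 223 to 260 CPM in wt/wt at week 4 and to 257 to 283 CPM in Δ/Δ, with 2 of 20 genes at 0 in each group. Ctsk, Nfatc1 and Itgb3 made up most of both sums. Their part in the rise of Tnfsf11 was not tested.

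Of 5 receptors of these ligands, 1 was higher and 1 lower in Δ/Δ at week 4, and 0 were called at week 1. At week 4, 9.20% of all genes were called higher and 6.46% lower. Ptprz1, a receptor-type phosphatase that binds Il34, fell from 95.8 ± 21.01 CPM in wt/wt to 7.65 ± 1.74 CPM in Δ/Δ (log2 fold change -3.66, adjusted p = 6.18e-07, edgeR). Sdc1, a proteoglycan that also binds Il34, rose slightly (0.30, adjusted p = 0.0492, edgeR). The receptors that define the osteoclast precursor were scarce: Tnfrsf11a (RANK) was at 0.113 ± 0.139 CPM in wt/wt and 0.0652 ± 0.0140 CPM in Δ/Δ, on 8 and 10 counts in all, and Csf1r was at 1.48 ± 0.117 and 1.76 ± 0.0963 CPM (adjusted p = 0.397, edgeR). Lgr4, a further receptor of RANKL, was at 47.1 ± 8.34 and 51.7 ± 7.46 CPM (adjusted p = 0.641, edgeR).

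Among 17 tested genes for other signals to osteoclasts, 5 were higher and 1 lower at week 4, against 9.20% and 6.46% of all genes. At week 1, 0 of the 17 were called. Their median log2 fold change at week 4 was 0.18, against 0.00 over all genes. Il15, a cytokine of natural killer cells, was among the higher ones (2.46, adjusted p = 1.65e-05, edgeR), as was Sema3a, a semaphorin that restrains osteoclasts (1.16, adjusted p = 3.35e-04). Ptgs2, the inducible cyclooxygenase of prostaglandin synthesis, was lower (-1.54, adjusted p = 0.00811, edgeR). Its log2 fold change at week 1 was nearly the same, -1.51 (adjusted p = 0.0579, edgeR). The interaction was called for Il15 and Sema3a (2.81 and 1.30) and not for Ptgs2 (-0.03).

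Of 30 tested genes of PTH receptor signalling and response, 2 were higher, 1 lower and 27 not called at week 4. Both shares were below those of all genes (9.20% higher and 6.46% lower). At week 1, 1 of the 30 was lower, as were 0.266% of all genes. Mef2c, a transcription factor of the PTH response in osteocytes, fell by 2.25 on the log2 scale (adjusted p = 5.87e-07, edgeR), from 114 ± 9.53 CPM in wt/wt to 24.1 ± 2.48 CPM in Δ/Δ. Rgs2, a PTH-induced regulator of G-protein signalling, rose from 9.46 ± 0.988 to 25.7 ± 2.85 CPM (1.44, adjusted p = 4.05e-05, edgeR), and Slc9a3r1, a scaffold that binds Pth1r, rose by 0.79 (adjusted p = 5.01e-04, edgeR). Gnas, which encodes the stimulatory G protein, Crem and Nr4a1 were not called at week 4, with log2 fold changes of 0.01, 0.00 and 0.20. At week 1, Nr4a1, an early response gene, was the lower one (-2.93, adjusted p = 0.04996, edgeR). It was at 158 ± 121 CPM in wt/wt (19.3 to 246) and at 20.6 ± 2.13 CPM in Δ/Δ (18.5 to 22.8). The groups thus overlapped, and the wt/wt libraries varied widely. Pthlh, the transcript of PTH-related protein, was near 0 in culture, with 1 to 5 counts in all per group.

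None of 14 tested genes of the vitamin D pathway was called at either week, where 9.20% of all genes were higher and 6.46% lower at week 4. Rxra, the partner of Vdr, was at 68.6 ± 34.9 CPM in wt/wt and 73.6 ± 19.9 CPM in Δ/Δ at week 4 (adjusted p = 0.903, edgeR). Cyp24a1, a direct target of Vdr that breaks down vitamin D, had 2 to 16 counts in all per cultured group, and Cyp27b1, which makes the active hormone, 1 to 3.

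Other hormone receptors of bone cells gave 7 higher and 1 lower of 15 tested at week 4, against 9.20% and 6.46% of all genes. Their median log2 fold change was 0.66. At week 1, 1 was higher, as were 0.752% of all genes. Prlr, the prolactin receptor, was higher at both weeks (1.68 at week 1 and 2.03 at week 4, adjusted p = 0.0191 and 3.96e-04, edgeR). Esr2, an oestrogen receptor, was higher by 1.99 and Tshr, the thyrotropin receptor, by 1.47 at week 4 (adjusted p = 0.00362 and 0.0212, edgeR). Tshr had a log2 fold change of 1.58 at week 1, which was not called (adjusted p = 0.117, edgeR). In wt/wt at week 4, Esr2 was at 0.160 ± 0.0597 CPM on 10 counts in all, and Prlr at 0.413 ± 0.0443 CPM on 27. Ghr was at 292 ± 49.8 CPM in Δ/Δ and 124 ± 17.1 CPM in wt/wt (1.23, adjusted p = 1.58e-04, edgeR). The lower receptor gene was Ramp1, at 27.7 ± 7.70 against 68.6 ± 19.0 CPM (-1.30, adjusted p = 0.00241, edgeR). The interaction was called for Esr2, Ghr and Ramp1, and not for Prlr (0.36) or Tshr (-0.11). In sorted cells, no gene of any of these lists was called by edgeR, which called 0 of all genes.

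Across the 12 cultured libraries, the genes most like each member were found by the Pearson correlation of log2 CPM over 9287 or 9288 other genes. The libraries share 4 groups, so these values describe the pattern over the groups. Pth1r was most like Ndnf (0.985), Angpt4 (0.984) and Sp7 (0.982), the last of which encodes osterix, a transcription factor of osteoblasts. Tnfsf11 was most like Trabd2b (0.958), Rgs2 (0.957) and Rin2 (0.956). Il34 was most like Gas6 (0.989), Tcn2 (0.986) and Ctsf (0.985), and Tnfrsf11b most like Stambpl1 (0.951), Zc2hc1a (0.938) and Cnot4 (0.933). Vdr was most like Setdb1 (0.947), Arhgef12 (0.946) and Axin1 (0.943), and Csf1, with the lowest values of the 6, most like Rabgef1 (0.907), Ints6 (0.904) and Plk2 (0.902).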

How the data were processed

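The count tables deposited by the authors hold whole-number counts of reads per gene symbol, with no normalization. Per the labels and the study's methods, full-length cDNA was made with SMART-Seq v4 and Nextera XT, which keep no strand, and reads were aligned to mm10 with HISAT2 2.0.4 and counted with featureCounts 1.6.3; the annotation and the strand setting are not given in the sources used here. Reads of overlapping genes on opposite strands can therefore be mixed.

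Counts were tested in R 4.3.3 with the quasi-likelihood test of edgeR 4.0.16 (filterByExpr with a minimum count of 10, TMM scaling, Benjamini-Hochberg adjustment over all genes, threshold 0.05). A single model with 4 group terms was used for the 12 cultured libraries, and another for the 6 sorted ones. CPM values are counts scaled by the TMM-adjusted library size. Standard errors come from the F statistic, and the fit was tested on simulated data. The log2 ratio of Tnfsf11 to Tnfrsf11b counts was compared by an exact two-sided permutation test. Exon lengths come from GENCODE M21 and promoters from RefSeq.

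The 6 members and all gene lists were chosen with earlier results of these data known. Named were the members, Pot1a, the 3 most similar genes of each member (mean log2 CPM of at least 3, prior count 2), a fixed set of receptors and targets, and up to 3 called genes per list with the largest changes in a genotype comparison. List genes named for a low count (Ptprc, Dcstamp, Calcr), and Nfatc1, Itgb3 and Col2a1, were chosen after their values were seen. Between replicates, counts varied beyond sampling noise in all 18 pairs (chi-square per degree of freedom 10.8 to 376), so each library was counted. Replicate numbers were checked for pairing by correlating the libraries' deviations from their group mean, which gave 0.152, 0.220 and 0.209 between the weeks in wt/wt, where each number was the best match and the numbers were taken to pair the libraries; in no other comparison were all 3 correlations above 0.1. Between wt/wt and Δ/Δ at week 4 these correlations were 0.636, 0.226 and -0.0835 for replicates 1 to 3. Alternatives were RLE scaling, library size only, 2 other filters on low counts, DESeq2 1.42.0, fits of only the libraries compared, a replicate block and leaving out each library. A sex term and leaving out the 2 sorted libraries rich in megakaryocyte markers were added after the data were seen.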

Additional observations from a re-analysis of the deposited data

Results flagged for a closer look

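For 2 of the 6 genes, the difference between Δ/Δ and wt/wt was not the same at both weeks of culture by the interaction test of edgeR. The genotype effect on Tnfsf11 was 2.65 larger on the log2 scale at week 4 than at week 1 (SE 0.44, adjusted p = 0.00251; -0.58 at week 1 and 2.07 at week 4), and all 3 Δ/Δ libraries of week 4 were above every other cultured library. The genotype effect on Pth1r differed by -2.17 (SE 0.21, adjusted p = 5.79e-05, edgeR), from 0.36 at week 1 to -1.81 at week 4. Both calls were made in each of 18 alternatives, in which the difference ranged from 2.41 to 3.00 for Tnfsf11 and from -2.27 to -2.03 for Pth1r.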

How the results depend on the processing

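The number of the 6 genes called moved by at most 1 under each of 110 alternatives (3 at week 4, 0 at week 1 and in sorted cells, 2 or 3 over time in wt/wt and for the interaction, 3 or 4 over time in Δ/Δ). Of 660 alternative values of single genes, 634 kept their direction and side of the threshold, 11 changed the call and 15 reversed, none of the reversed ones being called. With the replicate block, Tnfsf11 at week 4 had a log2 fold change of 2.12 (adjusted p = 6.38e-04, edgeR), and the paired fit of wt/wt over time changed no call. The block lost the call of Tnfrsf11b over time in Δ/Δ (0.54, adjusted p = 0.0622, and 0.53, adjusted p = 0.0511, within the genotype) and changed no other. Leaving out 1 library at a time, the log2 fold changes that reversed ranged from -0.073 to 0.22 (Tnfrsf11b, week 1), -0.22 to 0.075 (Vdr, week 4), -0.10 to 0.48 (Tnfsf11, time in wt/wt), -0.030 to 0.27 (Vdr, interaction), and in sorted cells from -0.15 to 0.24 (Tnfrsf11b), -1.88 to 0.66 (Il34) and -0.44 to 0.44 (Vdr). The log2 difference of the ratio in sorted cells ranged from -0.040 (without wt/fl replicate 3) to 1.25 (without wt/fl replicate 1), and that at week 4 from 0.90 to 1.63. With sex as a term, the sorted-cell values were -0.016 for Tnfrsf11b, 1.05 for Csf1, 0.56 for Il34 and 0.71 for Vdr; that fit compares the genotypes through 1 control library. The causes of these reversals were not tested. The 134 genes called at week 1 became 85 with at least 10 counts in every library, 445 with DESeq2, 237 with only the 6 libraries compared and 49 to 257 without single libraries (55 and 57 without wt/wt replicates 2 and 3 of week 1, 74, 52 and 49 without Δ/Δ replicates 1, 2 and 3, and 257 without wt/wt replicate 1 of week 4). The 2062 called at week 4 became 1267 with only the 6 libraries compared. In sorted cells 0 became 409 with DESeq2, 4 without wt/fl replicate 2 and 2 without both libraries rich in megakaryocyte markers. Outside the Δ/Δ group of week 4, Tnfsf11 in culture rested on 16 to 83 counts per library; how far depth sets its spread was not tested.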
